A study of Mus musculus with 9 samples.

Results

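The DNA replication genes described here are 47 genes whose products license replication origins, unwind DNA and build and protect the replication fork. The list goes by name and function and uses no measured value, but it was chosen with earlier results of these data known. The array annotation lists 46 of the 47, so 46 of the 18193 genes on the arrays are described. The missing one is Chaf1a, a subunit of chromatin assembly factor 1, which is not analysed here. Each gene was read from its probe set with the highest mean over the 9 arrays. All 46 passed the filter on low signals and were among the 13278 genes tested.

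The arrays measured total RNA of mouse cytotoxic T lymphocytes, the killer T cells that develop when CD8 T cells are activated. The mice carried the P14 T cell receptor transgene, which gives most CD8 T cells 1 specificity, for the viral peptide gp33-41, and their genotype is otherwise labelled wild type. Spleen cells were activated with that peptide, IL-2 and IL-12 for 48 h and grown for another 96 h, a culture of 6 days. Over its last 48 h the medium held 1 uM KU-0063794, 20 nM rapamycin or the solvent DMSO, so that activation, cytokines and transgene were shared by all groups. Each of the 3 groups held 3 cultures on 1 array each, and cultures with the same number came from the same spleen. KU-0063794 inhibits the mTOR kinase and so both mTOR complexes, whereas rapamycin acts through FKBP12 and mainly on mTOR complex 1. The comparisons ask how blocking mTOR in activated T cells changes their RNA.

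Replication origins are licensed in G1 when the origin recognition complex, CDC6 and CDT1 load the ring-shaped MCM2-7 helicase onto DNA. In S phase the kinase CDC7-DBF4, with CDC45 and the GINS complex, turns that ring into an active helicase. DNA polymerase alpha with its primase then starts each strand, and polymerases delta and epsilon extend it with the help of the sliding clamp PCNA. Many of these genes are textbook targets of the E2F factors, which activate them as cells pass from G1 into S, and dividing T cells express them strongly.

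E2F factors bind close to transcription starts, so the promoters of 5 members are printed here. The first 4 belong to the members with the lowest p-values against DMSO, averaged over both inhibitors, that have a promoter in the RefSeq table. The last, Mcm6, was added after its values were seen. It was taken because its promoter held the most E2F core matches among members that passed the test, with overlapping matches counted separately. Each sequence is from RefSeq on build GRCm38.p6, runs from 250 bases before the annotated transcription start through the first 50 bases after it, and is written 5′ to 3′ in the gene's direction. Capitals mark the E2F core, which was searched on either strand in the form TTCCCGC, as well as in the form TTCGCGC, in the form TTGGCGC and lastly in the form TTGCCGC, with overlapping matches run together. Pold1 encodes the catalytic subunit of polymerase delta, Timeless a fork protection factor, Mcm7 and Mcm6 helicase subunits, and Pola2 the B subunit of polymerase alpha.
Pold1, chr7:44548766-44549065, minus strand: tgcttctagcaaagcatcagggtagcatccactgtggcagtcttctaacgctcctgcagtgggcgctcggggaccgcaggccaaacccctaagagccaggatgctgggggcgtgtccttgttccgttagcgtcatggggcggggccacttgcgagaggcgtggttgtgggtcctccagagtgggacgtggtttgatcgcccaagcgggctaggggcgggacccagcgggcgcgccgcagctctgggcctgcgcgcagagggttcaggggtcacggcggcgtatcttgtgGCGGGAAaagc
Timeless, chr10:128237816-128238115, plus strand: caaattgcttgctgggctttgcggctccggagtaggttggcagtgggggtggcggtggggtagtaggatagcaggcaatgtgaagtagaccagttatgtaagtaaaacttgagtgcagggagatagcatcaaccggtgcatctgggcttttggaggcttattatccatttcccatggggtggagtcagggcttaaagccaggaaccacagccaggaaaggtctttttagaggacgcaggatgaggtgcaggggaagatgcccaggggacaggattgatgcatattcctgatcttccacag
Mcm7, chr5:138171834-138172133, minus strand: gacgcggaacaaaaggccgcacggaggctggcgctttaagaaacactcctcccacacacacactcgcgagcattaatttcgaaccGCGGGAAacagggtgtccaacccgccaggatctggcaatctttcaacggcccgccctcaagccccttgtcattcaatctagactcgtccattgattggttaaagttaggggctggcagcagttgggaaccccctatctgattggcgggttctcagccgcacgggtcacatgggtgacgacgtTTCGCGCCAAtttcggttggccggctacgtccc
Pola2, chr19:5964157-5964456, minus strand: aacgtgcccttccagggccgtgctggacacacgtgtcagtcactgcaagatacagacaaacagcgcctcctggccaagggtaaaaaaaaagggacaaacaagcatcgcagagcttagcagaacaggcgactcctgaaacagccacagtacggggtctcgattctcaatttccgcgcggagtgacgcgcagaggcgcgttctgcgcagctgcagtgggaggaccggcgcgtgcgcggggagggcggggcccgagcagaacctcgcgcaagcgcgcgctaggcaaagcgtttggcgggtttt
Mcm6, chr1:128359656-128359955, minus strand: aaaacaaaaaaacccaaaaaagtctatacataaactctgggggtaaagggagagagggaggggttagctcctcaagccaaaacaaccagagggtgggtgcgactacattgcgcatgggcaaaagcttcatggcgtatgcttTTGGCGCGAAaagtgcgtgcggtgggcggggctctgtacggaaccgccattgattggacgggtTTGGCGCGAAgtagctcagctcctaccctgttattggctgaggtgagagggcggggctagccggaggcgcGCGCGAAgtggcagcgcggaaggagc

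The Pold1 promoter lies on the minus strand of chromosome 7, and its 1 match sits within the last bases of the window, past the start site. The Mcm7 and Mcm6 promoters held 3 and 5 matches, some of them overlapping each other. The promoter of Pola1, which also passed and is not printed, held 4 that did not overlap. Those of Timeless and Pola2 held none of these letters, and the only Timeless start in the table lies inside the annotated gene. Mcm7 has 2 annotated starts, and the other 4 genes have 1 each.

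RefSeq promoters were found for 37 of the 46 genes, 47 promoters in all, since some genes have several starts whose windows can share bases. An E2F core was present in 28 of the 47 (59.6%), from 24 genes, against 15.4% of the 13523 promoters of all genes tested on the arrays and 9.6% of all 32851 promoters in the table. Median GC content was the same in the promoters of members and of all genes tested. A CCAAT box (CCAAT on either strand) was present in 59.6% of member promoters and 37.1% of those of all genes tested. The letters GCGCCAAT hold both an E2F core and a CCAAT box, so these counts are not separate. The cell cycle homology region, spelled TTTGAA or TTCGAA on either strand, was present in 23.4% and 13.8%. Among members that passed against DMSO 12 of 19 promoters (63.2%) held the E2F core, and among those that did not 16 of 28 (57.1%) did. A match is a run of letters and not a measured binding site.

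The E2F matches of replication genes lay near the start site. Of 49 matches, 23 (46.9%) ended at or past it, and the part from the start site on makes up 16.7% of the window. Of 2405 matches in promoters of all genes tested 19.6% ended there, a count that takes in matches spanning the start. Mcm3, Mcm8, Cdt1, Pold1, Pole2, Rfc1, Rfc4, Lig1 and Clspn had their matches past the start only, whereas those of Mcm5 all lay well before it.

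**Figure D1:**
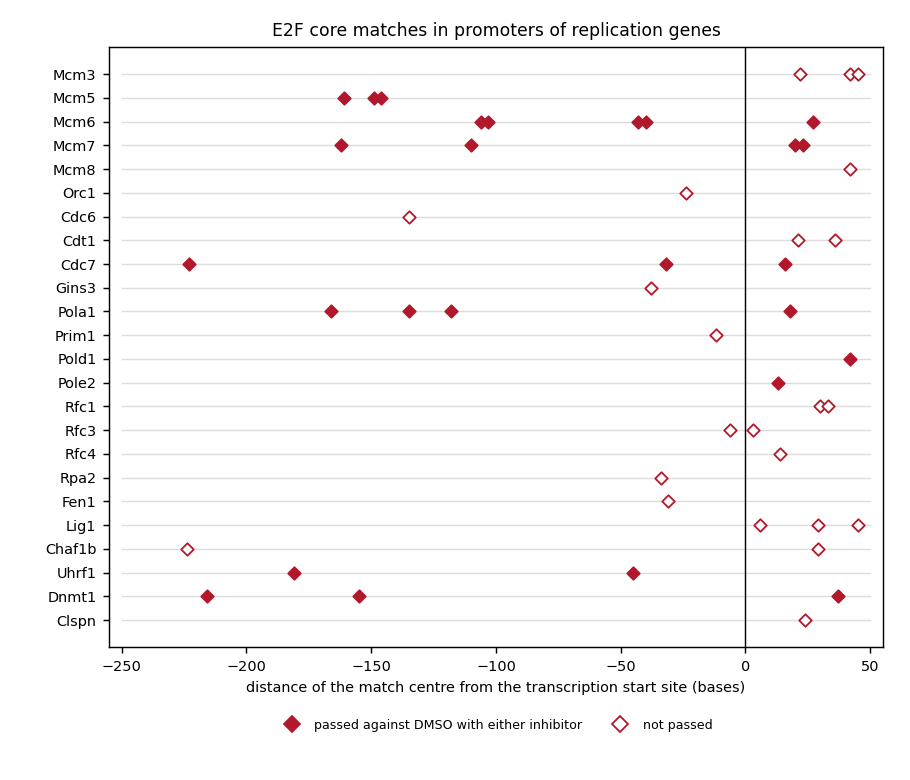
Position of each E2F core match in promoters of the 24 replication genes that hold one. The horizontal axis is the distance in bases from the transcription start site (0, vertical line), each row is a gene with all its annotated starts overlaid, filled diamonds mark genes past the threshold against DMSO and open diamonds the others. Both kinds hold matches before and past the start.

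Against DMSO, replication genes were higher with both inhibitors, none of them by 2-fold. With KU-0063794 16 of the 46 rose, none fell and 30 did not pass, at a Benjamini-Hochberg adjusted p of 0.05 over all genes in limma. Over all 13278 genes the share called higher in that contrast was 2.28% and lower 1.78%, or 4.07% in all. With rapamycin 14 rose, none fell and 32 did not pass, where 2.65% of all genes were called higher and 1.79% lower, or 4.44% in all. The median log2 fold change of the members was 0.41 with KU-0063794 and 0.36 with rapamycin, against 0.011 and -0.0043 over all genes tested. The largest fold was that of Pold1, 1.75 with KU-0063794 and 1.76 with rapamycin, and 44 of 46 members had a fold change above 1 with each. Both contrasts use the same 3 DMSO arrays, so their values are given side by side and not as separate support.

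The genes that rose with KU-0063794 were Mcm4, Mcm5, Mcm6, Mcm7, Gmnn, Gins1, Gins4, Pola1, Pola2, Pold1, Pold2, Pole, Pole2, Rfc5, Dnmt1 and Timeless. Those that rose with rapamycin were Mcm4, Mcm5, Mcm6, Mcm7, Cdc7, Gins1, Gins4, Pola2, Pold1, Pole, Pole2, Rfc5, Uhrf1 and Timeless. With the spleen as a block, which removes differences between mice, 30 members rose with KU-0063794 and 21 with rapamycin (6.52% and 6.24% of all genes were then called higher), and none fell. In bulk cultures more cells in S phase and more of each RNA per cell cannot be told apart.

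On single arrays the separation went beyond the calls. All 3 KU-0063794 arrays lay above all 3 DMSO arrays for 33 members, and below them for Rfc3 alone (11.0% and 9.29% of all genes). All 3 rapamycin arrays lay above DMSO for 32 members and below it for none (9.38% and 9.69% of all genes). Spleen by spleen, 41 members were higher with KU-0063794 in all 3 and 2 lower (22.1% and 19.3% of all genes), and 40 were higher with rapamycin and 0 lower (19.7% and 21.4%). The plot of every gene on every array shows the step between the treated arrays and DMSO running through all role groups.

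**Figure D2:**
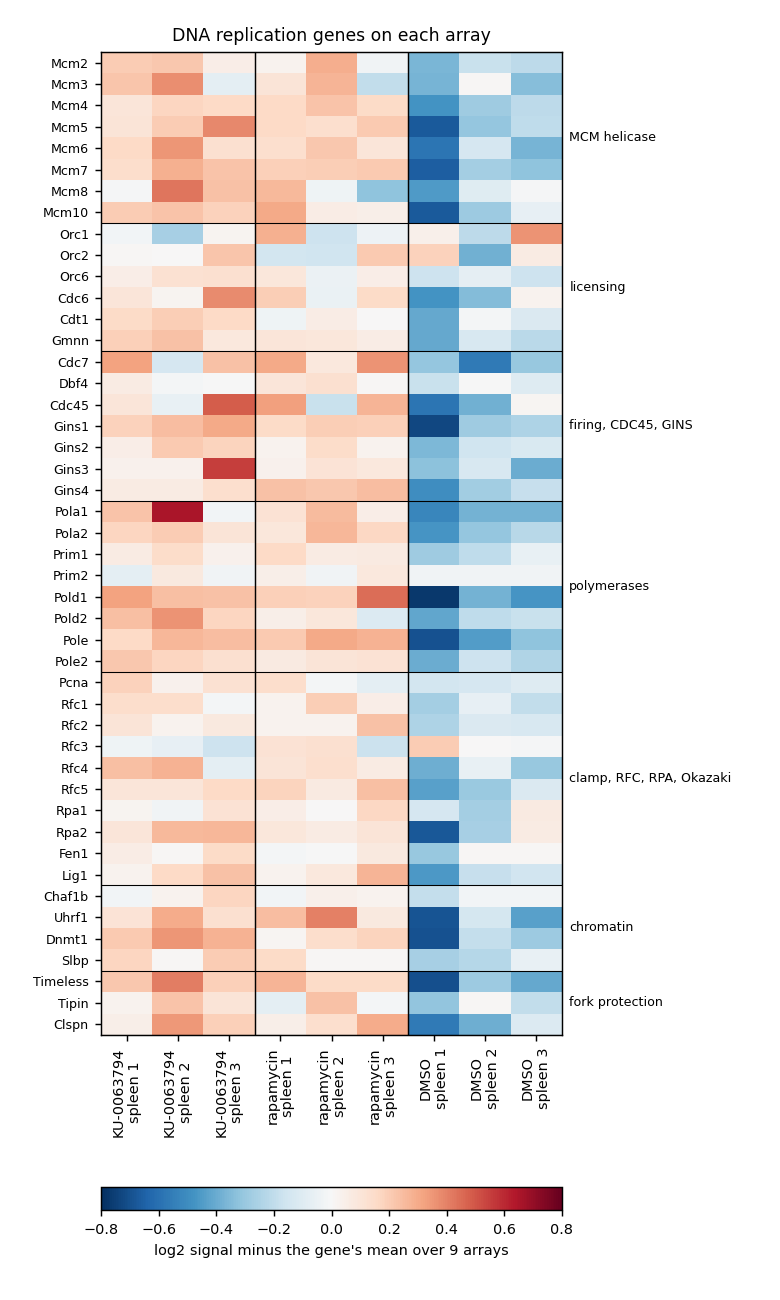
Log2 signal of 46 replication genes (rows, by role) on 9 arrays (columns), shown as the difference from each gene's mean over the arrays, red above and blue below. The KU-0063794 and rapamycin columns are red for most genes and the DMSO columns blue, deepest in spleen 1.

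The DMSO culture of spleen 1 stood apart. It held the lowest of the 9 values for 39 of the 46 members, against 15.6% of all genes tested. The median deviation of the members from their own 9-array means was 0.10, 0.19 and 0.16 on the KU-0063794 arrays of spleens 1, 2 and 3 and 0.10, 0.11 and 0.083 on the rapamycin arrays, against -0.41, -0.20 and -0.17 on the DMSO arrays. The 6 treated arrays were thus close together and the DMSO arrays spread. The median SD of a member was 0.088 with KU-0063794 and 0.084 with rapamycin, against 0.16 with DMSO (n = 3 each), while over all genes tested it was 0.12, 0.13 and 0.13. By spleen, the median difference from DMSO was 0.57, 0.37 and 0.30 with KU-0063794 and 0.49, 0.27 and 0.25 with rapamycin.

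Without the DMSO array of spleen 1 the medians were 0.33 with KU-0063794 and 0.27 with rapamycin, and 6 and 7 members passed, where 1.04% and 1.48% of all genes did. The counts also depended on single treated arrays. With KU-0063794 they were 4, 3 and 4 when its replicate 1, 2 or 3 was left out (0.949%, 0.971% and 0.904% of all genes). With rapamycin they were 5, 7 and 2 when its replicate 1, 2 or 3 was left out (1.71%, 2.45% and 1.26% of all genes). It was 9 without KU-0063794 replicate 1, which enters through the shared error, with 2.92% of all genes. The share of all genes called was lower too each time, against 4.07% and 4.44% with all 9 arrays. With any 1 spleen left out no member passed in either contrast, where 0 to 3 of all genes did with KU-0063794 and 0 or 1 with rapamycin. With the block and without spleen 1 the count was 0 in both contrasts too (0.662% of all genes with KU-0063794 and 0.0451% with rapamycin). It was 7 and 5 without spleen 2 (3.64% and 3.19%) and 2 and 0 without spleen 3 (0.903% and 0.135%).

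Pold1 and Pole kept their calls with both inhibitors whichever array was left out. The other 14 calls with KU-0063794 and 12 with rapamycin were lost without at least 1 array, with adjusted p up to 0.161 and 0.126. With KU-0063794, Timeless lost its call without KU-0063794 replicate 2, Mcm7 without KU-0063794 replicate 2 or 3, and Gins1 and Dnmt1 without any one of the 3 KU-0063794 arrays. Mcm4, Mcm5, Pola2, Pold2 and Pole2 lost theirs without any one of those or without DMSO replicate 1. The calls of Mcm6, Gmnn, Gins4, Pola1 and Rfc5 were lost without 6 to 8 of the 9 arrays. With rapamycin, Mcm4 and Gins4 lost their calls without rapamycin replicate 3, Mcm7 and Timeless without rapamycin replicate 1 or 3, and Gins1 without any one of the 3 rapamycin arrays. Pola2 lost it without DMSO replicate 1 or rapamycin replicate 2 or 3, and Mcm5, Mcm6, Cdc7, Pole2, Rfc5 and Uhrf1 without 6 to 8 of the 9 arrays. Some members gained a call instead. Mcm10 and Clspn passed with both inhibitors, and Rpa2 with KU-0063794, without DMSO replicate 3. Uhrf1 passed with KU-0063794, and Dnmt1 with rapamycin, without DMSO replicate 2. Cdc7 passed with KU-0063794 without KU-0063794 replicate 2, Mcm2 with KU-0063794 without rapamycin replicate 2, and Pola1 with rapamycin without KU-0063794 replicate 2 or 3.

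**Figure D3:**
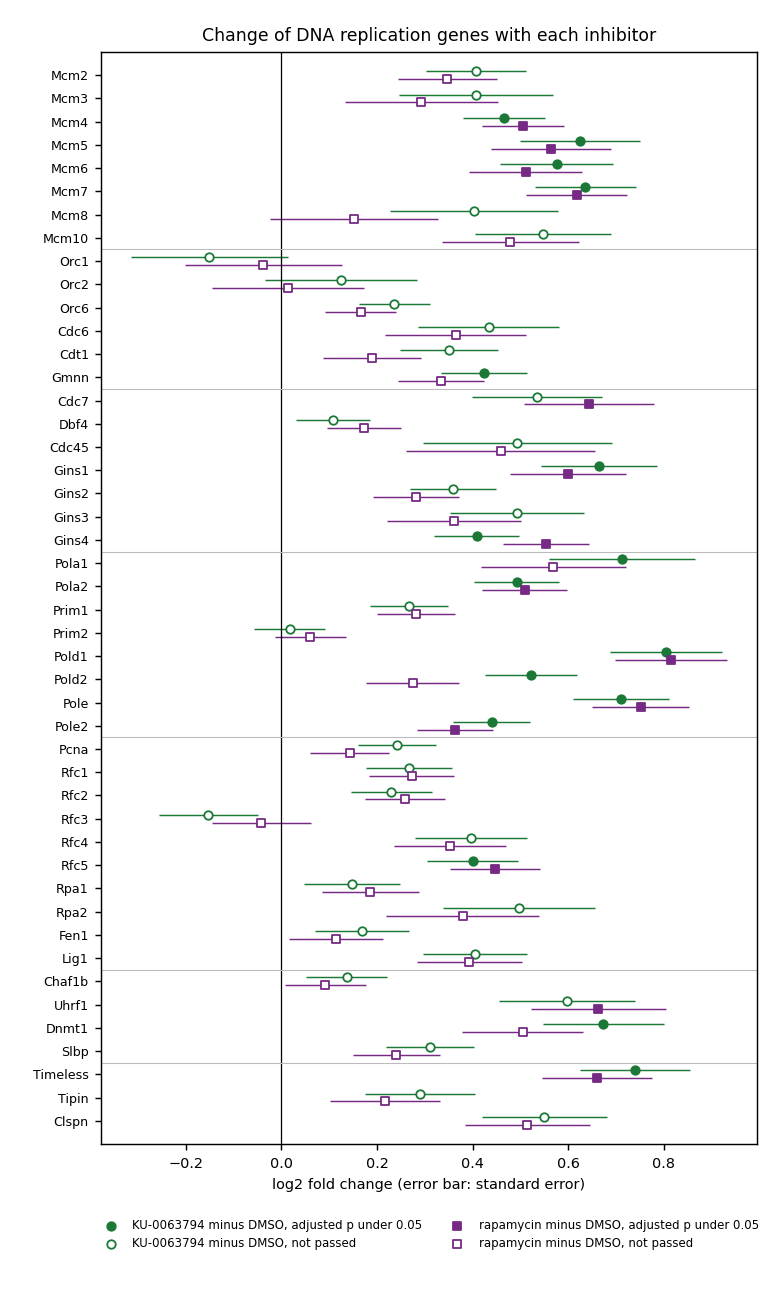
Log2 fold change of each of 46 replication genes, KU-0063794 minus DMSO (circles) and rapamycin minus DMSO (squares), with standard errors from limma. Filled symbols passed the threshold (16 and 14 genes), open symbols did not, and only Orc1 and Rfc3 lie below 0 in both.

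The MCM2-7 helicase, the ring that opens the double helix, rose in 4 of its 6 subunits. Of the 8 genes in the group, which also holds Mcm8 and Mcm10, 4 rose with each inhibitor. Of all genes 2.28% were called higher with KU-0063794 and 2.65% with rapamycin. The median log2 fold change of the group was 0.51 for KU-0063794 and 0.49 for rapamycin. Mcm7, one of the subunits of the helicase core, had 8.53, 8.68 and 8.62 log2 in KU-0063794 cultures, 8.58, 8.59 and 8.60 in rapamycin cultures and 7.73, 8.12 and 8.07 in DMSO cultures. All 6 treated arrays lay above all 3 DMSO arrays and within 0.15 of each other, with a log2 fold change of 0.64 (SE 0.11, adjusted p = 0.0169) with KU-0063794 and 0.62 (SE 0.11, adjusted p = 0.0148) with rapamycin. Mcm4 had 6.94, 7.02 and 7.0 log2 in KU-0063794 cultures, 7.01, 7.08 and 7.0 in rapamycin cultures and 6.37, 6.56 and 6.63 in DMSO cultures. Again the treated arrays did not overlap DMSO, and the change was 0.47 (SE 0.085, adjusted p = 0.0205) with KU-0063794 and 0.51 (SE 0.085, adjusted p = 0.0148) with rapamycin.

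Mcm5, which closes the ring against MCM2, had 7.35, 7.46 and 7.64 log2 in KU-0063794 cultures, 7.41, 7.39 and 7.46 in rapamycin cultures and 6.58, 6.95 and 7.05 in DMSO cultures, with the DMSO array of spleen 1 the lowest by 0.36. Its log2 fold change was 0.62 (SE 0.13, adjusted p = 0.0285) with KU-0063794 and 0.56 (SE 0.13, adjusted p = 0.0379) with rapamycin. The promoter of Mcm6, with 5 partly overlapping E2F core matches, is printed above. Mcm6 had 7.95, 8.14 and 7.92 log2 in KU-0063794 cultures, 7.92, 8.0 and 7.89 in rapamycin cultures and 7.21, 7.66 and 7.42 in DMSO cultures. No treated array of Mcm6 fell among the DMSO arrays, and its change was 0.58 (SE 0.12, adjusted p = 0.0293) with KU-0063794 and 0.51 (SE 0.12, adjusted p = 0.0431) with rapamycin.

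Mcm2 and Mcm3 complete the ring. Once the spleen entered as a block, Mcm2 passed with both inhibitors and Mcm3 with KU-0063794. For Mcm2 the log2 fold change was 0.41 (SE 0.10, adjusted p = 0.0654, or 0.0214 with the block) with KU-0063794 and 0.35 (SE 0.10, adjusted p = 0.106, or 0.0391 with the block) with rapamycin. For Mcm3, whose DMSO array of spleen 2 overlapped the treated ones, it was 0.41 (SE 0.16, adjusted p = 0.211, or 0.0198 with the block) with KU-0063794 and 0.29 (SE 0.16, adjusted p = 0.388, or 0.0641 with the block) with rapamycin. Mcm10, which helps the loaded helicase become active, had 0.55 (SE 0.14, adjusted p = 0.0725) with KU-0063794 and 0.48 (SE 0.14, adjusted p = 0.105) with rapamycin and did not pass with the block. Mcm8, which works with MCM9 in recombination repair and not in the MCM2-7 ring, had a mean of 2.28 log2 over the arrays and a change of 0.40 (SE 0.18, adjusted p = 0.261) with KU-0063794 and 0.15 (SE 0.18, adjusted p = 0.726) with rapamycin. By the suffix of their probe sets, Mcm2, Mcm3 and Mcm7 (with Gins2) were read with probes shared by several transcripts, and Mcm5 (with Pold1, Fen1 and Dnmt1) with some probes that can match other sequences. Another Mcm5 probe set gave 0.52 with KU-0063794 and 0.45 with rapamycin.

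Few of the genes that load the helicase passed. Of the 6 origin recognition and licensing genes 1 rose with KU-0063794 and none with rapamycin (2.28% and 2.65% of all genes). Their medians were 0.29 and 0.18. The one that rose was Gmnn, geminin, which binds CDT1 and prevents a second round of licensing. Its signals were 6.84, 6.88 and 6.74 log2 in KU-0063794 cultures, 6.75, 6.74 and 6.71 in rapamycin cultures and 6.24, 6.52 and 6.43 in DMSO cultures. Treated arrays did not overlap DMSO, and the log2 fold change was 0.42 (SE 0.089, adjusted p = 0.0321, or 0.0160 with the block) with KU-0063794 and 0.33 (SE 0.089, adjusted p = 0.0731, or 0.0386 with the block) with rapamycin.

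Cdc6, which recruits the helicase to the origin recognition complex, is shown as the member of this group with the largest change among those that did not pass. It had 5.11, 5.04 and 5.40 log2 in KU-0063794 cultures, 5.21, 4.96 and 5.17 in rapamycin cultures and 4.54, 4.67 and 5.05 in DMSO cultures. The DMSO array of spleen 3 lay inside the range of the treated arrays, and the log2 fold change was 0.43 (SE 0.15, adjusted p = 0.148, or 0.0339 with the block) with KU-0063794 and 0.36 (SE 0.15, adjusted p = 0.231, or 0.0621 with the block) with rapamycin. Cdt1, the helicase loader that geminin inhibits, passed with KU-0063794 and the block, at 0.35 (SE 0.10, adjusted p = 0.0990, or 0.0368 with the block) with KU-0063794 and 0.19 (SE 0.10, adjusted p = 0.382, or 0.214 with the block) with rapamycin. The origin recognition genes did not pass in either fit. Orc6 had 0.24 (SE 0.074, adjusted p = 0.118) with KU-0063794 and 0.17 (SE 0.074, adjusted p = 0.282) with rapamycin, Orc2 0.12 (SE 0.16, adjusted p = 0.759) with KU-0063794 and 0.013 (SE 0.16, adjusted p = 0.980) with rapamycin and Orc1 -0.15 (SE 0.16, adjusted p = 0.705) with KU-0063794 and -0.038 (SE 0.16, adjusted p = 0.941) with rapamycin. Of 2 other Orc2 probe sets above background 1 had the same sign, at 0.04 with KU-0063794 and 0.09 with rapamycin, and 1 the opposite, at -0.40 and -0.48.

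Medians were 0.49 with KU-0063794 and 0.46 with rapamycin among the 7 genes that fire origins and assemble the active helicase. Of them 2 rose with KU-0063794 and 3 with rapamycin (2.28% and 2.65% of all genes). Cdc7, the kinase that triggers firing, had 4.75, 4.29 and 4.66 log2 in KU-0063794 cultures, 4.73, 4.51 and 4.78 in rapamycin cultures and 4.12, 3.86 and 4.12 in DMSO cultures. Every treated array lay above the highest DMSO array, although spleen 2 was low in all 3 groups. The log2 fold change was 0.54 (SE 0.14, adjusted p = 0.0649, or 0.00484 with the block) with KU-0063794 and 0.64 (SE 0.14, adjusted p = 0.0322, or 0.00301 with the block) with rapamycin. Its partner Dbf4, the regulatory subunit, had 0.11 (SE 0.078, adjusted p = 0.526) with KU-0063794 and 0.17 (SE 0.078, adjusted p = 0.285) with rapamycin and did not pass.

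The GINS complex has 4 subunits, named Gins1 to Gins4. Gins1 had 4.68, 4.74 and 4.80 log2 in KU-0063794 cultures, 4.65, 4.69 and 4.68 in rapamycin cultures and 3.77, 4.21 and 4.24 in DMSO cultures, and the 6 treated arrays spanned 4.65 to 4.80 against 3.77 to 4.24 in DMSO. Its change was 0.66 (SE 0.12, adjusted p = 0.0204) with KU-0063794 and 0.60 (SE 0.12, adjusted p = 0.0271) with rapamycin. Gins4 had 5.33, 5.33 and 5.40 log2 in KU-0063794 cultures, 5.50, 5.48 and 5.51 in rapamycin cultures and 4.76, 4.98 and 5.08 in DMSO cultures. Here the 3 rapamycin arrays lay above the 3 KU-0063794 arrays, and both lay above DMSO, with a log2 fold change of 0.41 (SE 0.090, adjusted p = 0.0377) with KU-0063794 and 0.55 (SE 0.090, adjusted p = 0.0132) with rapamycin. Gins2 passed with the block, at 0.36 (SE 0.090, adjusted p = 0.0618, or 0.0174 with the block) with KU-0063794 and 0.28 (SE 0.090, adjusted p = 0.128, or 0.0420 with the block) with rapamycin. Gins3 had 0.49 (SE 0.14, adjusted p = 0.0929) with KU-0063794 and 0.36 (SE 0.14, adjusted p = 0.211) with rapamycin and did not pass. Cdc45, which joins GINS on the helicase, had 0.49 (SE 0.20, adjusted p = 0.220, or 0.0496 with the block) with KU-0063794 and 0.46 (SE 0.20, adjusted p = 0.264, or 0.0655 with the block) with rapamycin.

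The polymerase group held the member with the largest change, Pold1. Of 8 genes 6 rose with KU-0063794 and 4 with rapamycin (2.28% and 2.65% of all genes), with medians of 0.51 and 0.44. Pold1, the catalytic subunit of polymerase delta, had 6.27, 6.19 and 6.19 log2 in KU-0063794 cultures, 6.14, 6.13 and 6.40 in rapamycin cultures and 5.18, 5.57 and 5.48 in DMSO cultures. The highest DMSO array lay 0.56 below the lowest treated one, and the log2 fold change was 0.80 (SE 0.12, adjusted p = 0.0114) with KU-0063794 and 0.82 (SE 0.12, adjusted p = 0.00977) with rapamycin. A second Pold1 probe set gave 0.71 with each inhibitor. Pole, the catalytic subunit of the leading-strand polymerase epsilon, had 5.08, 5.18 and 5.17 log2 in KU-0063794 cultures, 5.13, 5.22 and 5.20 in rapamycin cultures and 4.22, 4.47 and 4.60 in DMSO cultures. The 6 treated arrays lay within 0.15 of each other and all above DMSO, and the change was 0.71 (SE 0.10, adjusted p = 0.0113) with KU-0063794 and 0.75 (SE 0.10, adjusted p = 0.00806) with rapamycin.

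Pole2, the accessory subunit of polymerase epsilon, had 5.91, 5.86 and 5.81 log2 in KU-0063794 cultures, 5.76, 5.79 and 5.80 in rapamycin cultures and 5.29, 5.52 and 5.45 in DMSO cultures. The groups did not overlap, and its change was 0.44 (SE 0.080, adjusted p = 0.0202) with KU-0063794 and 0.36 (SE 0.080, adjusted p = 0.0365) with rapamycin. Pold2, the accessory subunit of polymerase delta, had 5.62, 5.74 and 5.56 log2 in KU-0063794 cultures, 5.43, 5.48 and 5.28 in rapamycin cultures and 4.97, 5.18 and 5.20 in DMSO cultures. KU-0063794 arrays were highest, rapamycin arrays came between and DMSO arrays were lowest, with no overlap, and the log2 fold change was 0.52 (SE 0.10, adjusted p = 0.0211) with KU-0063794 and 0.27 (SE 0.10, adjusted p = 0.167) with rapamycin. With the block the adjusted p of Pold2 was 0.0859 with rapamycin.

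Polymerase alpha and its primase start each new strand. Pola1, the catalytic subunit, had 4.77, 5.19 and 4.52 log2 in KU-0063794 cultures, 4.66, 4.80 and 4.60 in rapamycin cultures and 4.02, 4.16 and 4.16 in DMSO cultures. The KU-0063794 array of spleen 2 stood 0.42 above the next KU-0063794 array, no treated array overlapped DMSO, and the log2 fold change was 0.71 (SE 0.15, adjusted p = 0.0339, or 0.00939 with the block) with KU-0063794 and 0.57 (SE 0.15, adjusted p = 0.0731, or 0.0220 with the block) with rapamycin. Pola2 had 4.22, 4.25 and 4.15 log2 in KU-0063794 cultures, 4.14, 4.31 and 4.22 in rapamycin cultures and 3.57, 3.74 and 3.83 in DMSO cultures, again without overlap between treated arrays and DMSO, and its change was 0.49 (SE 0.089, adjusted p = 0.0199) with KU-0063794 and 0.51 (SE 0.089, adjusted p = 0.0161) with rapamycin. The primase subunits did not pass in either fit. Prim1, which makes the RNA primer, had 0.27 (SE 0.082, adjusted p = 0.112) with KU-0063794 and 0.28 (SE 0.082, adjusted p = 0.0960) with rapamycin, and Prim2, which helps hand it to the polymerase, had 0.017 (SE 0.074, adjusted p = 0.945) with KU-0063794 and 0.060 (SE 0.074, adjusted p = 0.746) with rapamycin.

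**Figure D4:**
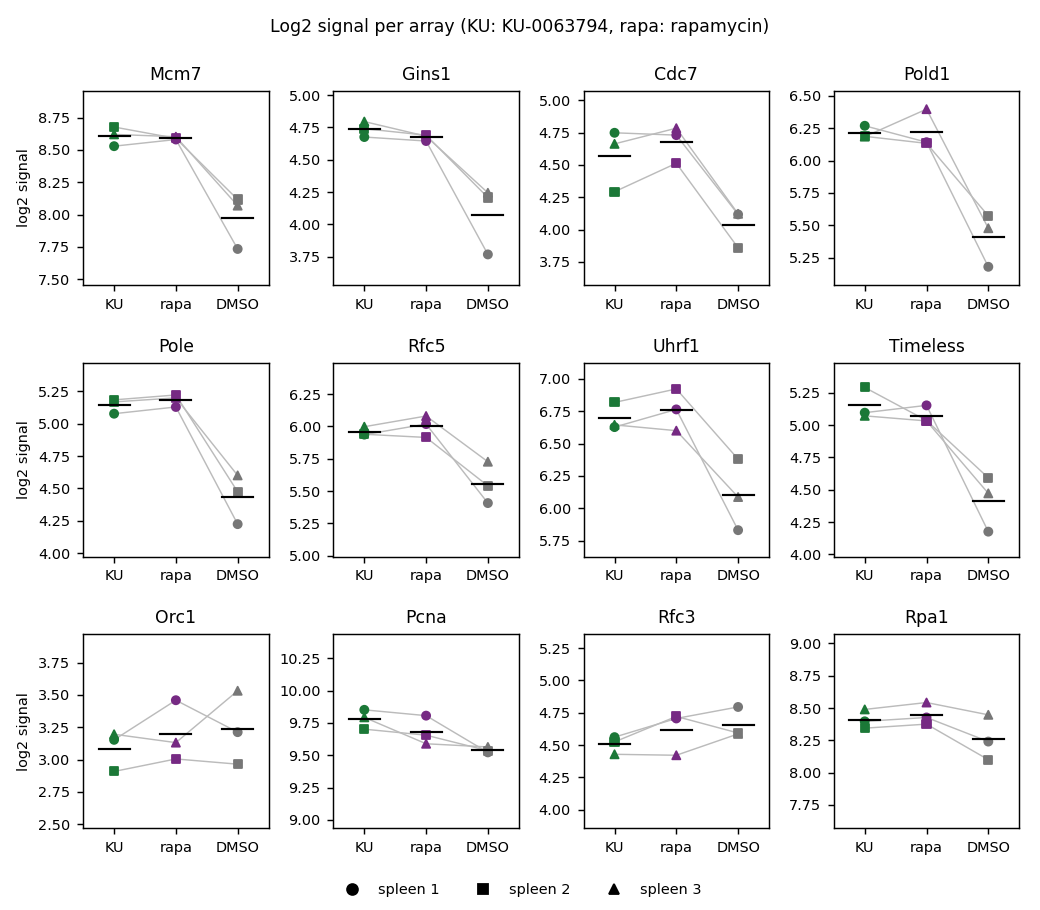
Log2 signal on each array for 8 members that passed against DMSO in at least 1 contrast (upper 2 rows) and 4 that did not (lower row), by group and with spleens joined by lines, each panel spanning 1.5 log2. Bars are group means (n = 3). The upper panels step down from both inhibitors to DMSO, while Orc1, Pcna, Rfc3 and Rpa1 change less. Pcna too lies above DMSO on all treated arrays. The 4 genes of the lower row were chosen after their values were seen and do not stand for all members that did not pass. Of all 46 members, 44 had a fold change above 1 with each inhibitor.

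The sliding clamp, its loader and the single-strand binding proteins mostly did not pass. These 10 genes, which include those that mature Okazaki fragments, had medians of 0.25 and 0.27. Among them 1 rose with each inhibitor (2.28% and 2.65% of all genes). It was Rfc5, a subunit of the clamp loader replication factor C, with 5.94, 5.94 and 6.0 log2 in KU-0063794 cultures, 6.02, 5.91 and 6.08 in rapamycin cultures and 5.41, 5.54 and 5.73 in DMSO cultures. The treated arrays lay above DMSO by at least 0.19, and the log2 fold change was 0.40 (SE 0.095, adjusted p = 0.0497) with KU-0063794 and 0.45 (SE 0.095, adjusted p = 0.0322) with rapamycin. The other loader subunits varied. Rfc4 had 0.40 (SE 0.12, adjusted p = 0.102, or 0.0345 with the block) with KU-0063794 and 0.35 (SE 0.12, adjusted p = 0.141, or 0.0515 with the block) with rapamycin. Rfc1, the large subunit, had 0.27 (SE 0.090, adjusted p = 0.143) with KU-0063794 and 0.27 (SE 0.090, adjusted p = 0.139) with rapamycin. Of 2 other Rfc1 probe sets above background 1 had the same sign, at 0.43 with each inhibitor, and 1 the opposite, at -0.15 with KU-0063794 and -0.09 with rapamycin. Rfc2 had 0.23 (SE 0.085, adjusted p = 0.181) with KU-0063794 and 0.26 (SE 0.085, adjusted p = 0.136) with rapamycin and Rfc3 -0.15 (SE 0.10, adjusted p = 0.496) with KU-0063794 and -0.042 (SE 0.10, adjusted p = 0.887) with rapamycin. Of these only Rfc4 passed, with KU-0063794 and the block.

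Pcna itself, the clamp, is shown because it is a common proliferation marker, a choice made after its values were seen. It had 9.85, 9.70 and 9.79 log2 in KU-0063794 cultures, 9.81, 9.66 and 9.59 in rapamycin cultures and 9.52, 9.54 and 9.56 in DMSO cultures. The KU-0063794 and rapamycin arrays lay above DMSO, rapamycin by as little as 0.025, and the log2 fold change was 0.24 (SE 0.082, adjusted p = 0.148) with KU-0063794 and 0.14 (SE 0.082, adjusted p = 0.417) with rapamycin. With the block the adjusted p was 0.0793 with KU-0063794 and 0.283 with rapamycin.

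Replication protein A coats single-stranded DNA. Rpa2, its middle subunit, had the largest change in this group among members that did not pass, with 5.35, 5.51 and 5.52 log2 in KU-0063794 cultures, 5.35, 5.33 and 5.36 in rapamycin cultures and 4.58, 4.99 and 5.33 in DMSO cultures. Its DMSO arrays spread over 0.75, from 4.58 in spleen 1 to 5.33 in spleen 3, and the log2 fold change was 0.50 (SE 0.16, adjusted p = 0.125, or 0.0458 with the block) with KU-0063794 and 0.38 (SE 0.16, adjusted p = 0.252, or 0.111 with the block) with rapamycin. Without DMSO replicate 3 it passed with KU-0063794 (adjusted p = 0.0389). Rpa1, the large subunit, had 0.15 (SE 0.10, adjusted p = 0.503) with KU-0063794 and 0.19 (SE 0.10, adjusted p = 0.387) with rapamycin. Lig1, the ligase that joins Okazaki fragments, passed with the block, at 0.40 (SE 0.11, adjusted p = 0.0798, or 0.0105 with the block) with KU-0063794 and 0.39 (SE 0.11, adjusted p = 0.0833, or 0.0123 with the block) with rapamycin. Fen1, the nuclease that trims their flaps, had 0.17 (SE 0.10, adjusted p = 0.420) with KU-0063794 and 0.11 (SE 0.10, adjusted p = 0.617) with rapamycin.

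Genes that copy chromatin behind the fork were a mixed group. Of 4 measured genes 1 rose with each inhibitor, a different one in each (2.28% and 2.65% of all genes). Their medians were 0.45 and 0.37. Dnmt1, the methyltransferase that restores DNA methylation on the new strand, had 7.23, 7.38 and 7.30 log2 in KU-0063794 cultures, 7.04, 7.16 and 7.20 in rapamycin cultures and 6.33, 6.83 and 6.73 in DMSO cultures. KU-0063794 arrays were highest, rapamycin arrays next and DMSO arrays lowest, without overlap, and the log2 fold change was 0.67 (SE 0.13, adjusted p = 0.0221, or 0.00490 with the block) with KU-0063794 and 0.50 (SE 0.13, adjusted p = 0.0578, or 0.0129 with the block) with rapamycin. Other Dnmt1 probe sets above background gave 0.48 and 0.69 with KU-0063794 and 0.41 and 0.60 with rapamycin.

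Uhrf1, which binds hemimethylated DNA and brings DNMT1 to it, had 6.63, 6.82 and 6.64 log2 in KU-0063794 cultures, 6.76, 6.92 and 6.60 in rapamycin cultures and 5.83, 6.38 and 6.09 in DMSO cultures. Treated arrays did not overlap DMSO, and the log2 fold change was 0.60 (SE 0.14, adjusted p = 0.05001, or 0.00817 with the block) with KU-0063794 and 0.66 (SE 0.14, adjusted p = 0.0330, or 0.00624 with the block) with rapamycin. In KU-0063794 cultures Uhrf1 thus missed the threshold narrowly. Slbp, which binds the stem-loop of histone mRNA and supports histone supply, passed with the block and KU-0063794, at 0.31 (SE 0.091, adjusted p = 0.0998, or 0.0484 with the block) with KU-0063794 and 0.24 (SE 0.091, adjusted p = 0.1999, or 0.111 with the block) with rapamycin. Chaf1b, a chromatin assembly factor 1 subunit, had 0.14 (SE 0.084, adjusted p = 0.444) with KU-0063794 and 0.092 (SE 0.084, adjusted p = 0.640) with rapamycin.

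Fork protection genes had the highest median of the role groups, 0.55 with KU-0063794 and 0.51 with rapamycin. Of these 3 genes 1 rose with each inhibitor (2.28% and 2.65% of all genes). Timeless, which keeps helicase and polymerase together and signals fork stalling, had 5.10, 5.29 and 5.07 log2 in KU-0063794 cultures, 5.15, 5.04 and 5.03 in rapamycin cultures and 4.18, 4.59 and 4.47 in DMSO cultures. The lowest treated array lay 0.44 above the highest DMSO array, with a log2 fold change of 0.74 (SE 0.12, adjusted p = 0.0137) with KU-0063794 and 0.66 (SE 0.12, adjusted p = 0.0163) with rapamycin. Tipin, its partner, passed with KU-0063794 and the block only, at 0.29 (SE 0.12, adjusted p = 0.217, or 0.0282 with the block) with KU-0063794 and 0.22 (SE 0.12, adjusted p = 0.377, or 0.0773 with the block) with rapamycin. Clspn, claspin, which carries the stalled-fork signal to the kinase CHK1, had 4.78, 5.09 and 4.93 log2 in KU-0063794 cultures, 4.78, 4.87 and 5.04 in rapamycin cultures and 4.17, 4.35 and 4.63 in DMSO cultures. Treated arrays lay above DMSO in Clspn too, and the log2 fold change was 0.55 (SE 0.13, adjusted p = 0.0504, or 0.00983 with the block) with KU-0063794 and 0.51 (SE 0.13, adjusted p = 0.0612, or 0.0132 with the block) with rapamycin. Without DMSO replicate 3 it passed with both inhibitors.

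**Figure D5:**
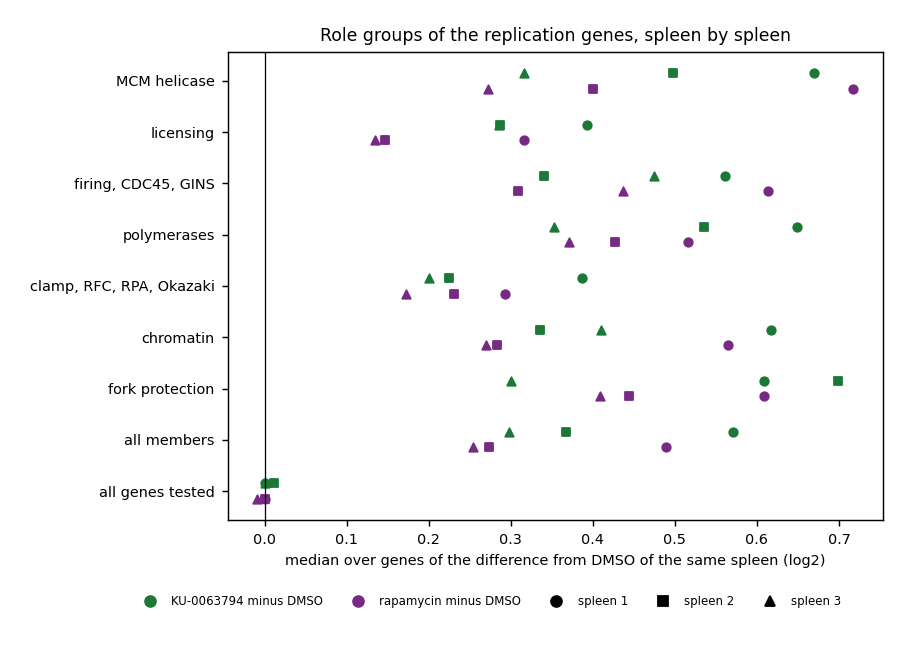
Median difference from the DMSO array of the same spleen, in log2, for each role group, for all 46 members and for all 13278 genes tested, with 1 point per spleen (circle, square and triangle for spleens 1, 2 and 3) and colour for inhibitor. Every role group lies above 0 in every spleen, and the medians of all genes tested lie close to 0.

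Between the inhibitors no difference passed. In KU-0063794 against rapamycin 0 of 46 members and 0% of all genes passed in limma, with and without the block. The doses, 1 uM and 20 nM, differ, and each inhibitor was used at 1 dose, so no dose was matched. An unadjusted p under 0.05 in limma was reached by 1 of the 46 members, Pold2, no larger a share than the 4.74% of all genes. Its log2 difference was 0.25 (95% interval 0.030 to 0.47, adjusted p = 0.933), or an adjusted p of 0.438 with the block, the lowest of the members in each fit. Spleen by spleen, 13 members were higher with KU-0063794 in all 3 and 4 with rapamycin (16.3% and 13.3% of all genes). The median difference over the members was 0.06 log2, and 30 were higher with KU-0063794 and 16 with rapamycin, where 7142 and 6124 of all genes were. Without KU-0063794 replicate 2 the median was 0.016, and without its replicate 3 it was 0.023. Of the 46 differences 25 changed sign under at least 1 alternative. The 95% intervals of 45 of the 46 differences lay within 0.5 log2 of 0, the exception being Mcm8 at 0.25 (95% interval -0.14 to 0.65, adjusted p = 0.948), and over all members the bounds ran from -0.48 to 0.65.

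The inhibitors' arrays did not overlap in 5 members. Cdt1, Pold2, Pole2 and Dnmt1 were higher with KU-0063794 on all 3 arrays (4.87% of all genes were so) and Gins4 was higher with rapamycin (3.30%). Cdt1 had 7.12, 7.16 and 7.13 log2 in KU-0063794 cultures, 6.93, 7.03 and 6.97 in rapamycin cultures and 6.56, 6.95 and 6.85 in DMSO cultures. The difference was 0.16 (95% interval -0.069 to 0.39, adjusted p = 0.937) for Cdt1, 0.17 (95% interval -0.12 to 0.45, adjusted p = 0.954) for Dnmt1 and -0.15 (95% interval -0.35 to 0.056, adjusted p = 0.937) for Gins4. For Cdc7 and Uhrf1, which passed with rapamycin alone, it was -0.11 (95% interval -0.41 to 0.20, adjusted p = 0.972) and -0.065 (95% interval -0.38 to 0.25, adjusted p = 0.982), so for neither gene did the difference between the inhibitors pass.

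Further replication genes were also higher. Of 43 others, among them further subunits, chaperones and checkpoint genes, 42 were tested. With KU-0063794 11 rose and none fell (2.28% and 1.78% of all genes), with a median of 0.37. With rapamycin 11 rose and none fell (2.65% and 1.79% of all genes), with a median of 0.28. With the block 22 and 19 rose (6.52% and 6.24% of all genes). Calls outside the 46 members were not recomputed without single arrays. Dscc1, a subunit of the clamp loader that joins sister chromatids, had a log2 fold change of 0.78 (SE 0.11, adjusted p = 0.0114) with KU-0063794 and 0.79 (SE 0.11, adjusted p = 0.0102) with rapamycin. Pclaf, which binds PCNA, had 0.52 (SE 0.088, adjusted p = 0.0169) with KU-0063794 and 0.58 (SE 0.088, adjusted p = 0.0118) with rapamycin. Top2a, the topoisomerase that untangles copied DNA, had 0.57 (SE 0.090, adjusted p = 0.0137) with KU-0063794 and 0.58 (SE 0.090, adjusted p = 0.0120) with rapamycin. Asf1b, a histone chaperone, had 0.47 (SE 0.086, adjusted p = 0.0210) with KU-0063794 and 0.49 (SE 0.086, adjusted p = 0.0167) with rapamycin. RNase H2 removes RNA from DNA, and its catalytic subunit Rnaseh2a had 0.66 (SE 0.12, adjusted p = 0.0186) with KU-0063794 and 0.59 (SE 0.12, adjusted p = 0.0252) with rapamycin. Nasp, another histone chaperone, had 0.44 (SE 0.078, adjusted p = 0.0187, or 0.00708 with the block) with KU-0063794 and 0.26 (SE 0.078, adjusted p = 0.108, or 0.0479 with the block) with rapamycin. Pold4, the small subunit of polymerase delta, fell with the block only, at -0.57 (SE 0.25, adjusted p = 0.276, or 0.00891 with the block) with KU-0063794 and -0.46 (SE 0.25, adjusted p = 0.397, or 0.0202 with the block) with rapamycin, and is named after its values were seen.

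Genes of nucleotide supply mostly did not pass. Of 12 genes 11 were tested, 1 rose with KU-0063794 and none with rapamycin (2.28% and 2.65% of all genes), with medians of 0.14 and 0.21. The gene that rose was Dctd, the deaminase that provides dUMP for thymidylate, with mean signals of 2.15 log2 in KU-0063794, 1.76 in rapamycin and 1.16 in DMSO cultures, the last below the background level of 1.31, and a change of 0.99 (SE 0.18, adjusted p = 0.0209, or 0.00731 with the block) with KU-0063794 and 0.60 (SE 0.18, adjusted p = 0.112, or 0.0455 with the block) with rapamycin. Rrm1, a subunit of ribonucleotide reductase, and Dut, the dUTPase, passed with KU-0063794 and the block only. Rrm1 had 0.35 (SE 0.092, adjusted p = 0.0765, or 0.0322 with the block) with KU-0063794 and 0.26 (SE 0.092, adjusted p = 0.169, or 0.0839 with the block) with rapamycin, and Dut 0.32 (SE 0.093, adjusted p = 0.0948, or 0.0249 with the block) with KU-0063794 and 0.25 (SE 0.093, adjusted p = 0.199, or 0.0661 with the block) with rapamycin.

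The regulators of the G1 to S step went both ways. Of 28 genes 6 rose and 2 fell with KU-0063794 (2.28% and 1.78% of all genes), and 7 rose and 2 fell with rapamycin (2.65% and 1.79%). The medians were 0.19 and 0.21. Those that fell were Cdkn1a, the p21 inhibitor of cyclin-dependent kinases, with -0.87 (SE 0.14, adjusted p = 0.0149) with KU-0063794 and -0.77 (SE 0.14, adjusted p = 0.0183) with rapamycin, and Ccnd2, cyclin D2, with -0.72 (SE 0.11, adjusted p = 0.0127) with KU-0063794 and -0.47 (SE 0.11, adjusted p = 0.0464) with rapamycin. E2f7, an E2F repressor that is itself an E2F target, had 0.91 (SE 0.13, adjusted p = 0.0114) with KU-0063794 and 1.11 (SE 0.13, adjusted p = 0.00649) with rapamycin. Rbl1, the pocket protein p107, had 0.74 (SE 0.11, adjusted p = 0.0114) with KU-0063794 and 0.77 (SE 0.11, adjusted p = 0.00872) with rapamycin, and Tfdp2, a dimer partner of E2F factors, 0.61 (SE 0.12, adjusted p = 0.0285) with KU-0063794 and 0.79 (SE 0.12, adjusted p = 0.0120) with rapamycin. The DMSO mean of Tfdp2, 1.17 log2, lay below the background level. Cdk4, the kinase that cyclin D activates, had 0.48 (SE 0.074, adjusted p = 0.0131) with KU-0063794 and 0.36 (SE 0.074, adjusted p = 0.0275) with rapamycin.

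Most mitosis genes rose. Of 24 genes 23 were tested, 18 rose with KU-0063794 and 19 with rapamycin (2.28% and 2.65% of all genes) and none fell, with medians of 0.61 and 0.69. Aspm, a spindle pole protein, had 1.08 (SE 0.14, adjusted p = 0.00842) with KU-0063794 and 1.09 (SE 0.14, adjusted p = 0.00649) with rapamycin. Ndc80 and Nuf2, subunits of the kinetochore complex that grips microtubules, were also higher. Ndc80 had 0.74 (SE 0.11, adjusted p = 0.0114) with KU-0063794 and 0.80 (SE 0.11, adjusted p = 0.00806) with rapamycin. Nuf2 had 0.70 (SE 0.10, adjusted p = 0.0114) with KU-0063794 and 0.71 (SE 0.10, adjusted p = 0.00966) with rapamycin. Ccnb2, cyclin B2, had 0.62 (SE 0.10, adjusted p = 0.0142) with KU-0063794 and 0.69 (SE 0.10, adjusted p = 0.00966) with rapamycin. On single arrays the mitosis genes were, like the replication genes, higher on all 6 treated arrays than on the DMSO arrays, but their order within the treated groups was another. Their median deviation was 0.22, 0.15 and 0.22 with KU-0063794 and 0.24, 0.21 and 0.25 with rapamycin, against -0.59, -0.30 and -0.33 with DMSO, again lowest in DMSO spleen 1. KU-0063794 spleen 2 was the highest of the 3 KU-0063794 arrays for the replication genes and the lowest for the mitosis genes, and rapamycin spleen 3 the lowest and the highest of the rapamycin arrays. These orders rest on single arrays and small gaps, such as 0.246 in rapamycin spleen 3 against 0.242 in spleen 1 for the mitosis genes, and were not tested. What part cell cycle stage has in the differences of the replication genes was not tested.

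Of the checks on the arrays, the summed CD8 T cell signal and the RNA integrity measures differed with treatment. The integrity measures went opposite ways for the actin and Gapdh controls. Array medians lay between 0.47 and 0.53 log2, and the background level of 1.31 log2 was exceeded by 30.3% to 31.0% of probe sets. All 46 members were above that level on all 9 arrays. All 12 measured genes of a CD8 T cell list were above it in each group. Their summed linear signals did not overlap between treated and DMSO arrays, at 6944 to 7333 with KU-0063794 and 6767 to 7221 with rapamycin, against 7477 to 8167 with DMSO. A linear sum is weighted to the brightest gene, here Gzmb, granzyme B. Its means were 12.09 log2 with KU-0063794, 12.08 with rapamycin and 12.33 with DMSO. By sign of the fold change, 4 of the 12 genes were higher and 8 lower with KU-0063794, and 6 and 6 with rapamycin. Lat, an adaptor of T cell receptor signalling, fell with KU-0063794, with a log2 fold change of -0.39 (SE 0.073, adjusted p = 0.0229) with KU-0063794 and -0.25 (SE 0.073, adjusted p = 0.101) with rapamycin. No other gene of the list passed with either inhibitor. With the block 4 fell and 1 rose with KU-0063794 (5.86% and 6.52% of all genes), and 3 fell and 2 rose with rapamycin (5.52% and 6.24%). The widest difference was that of Prf1, the pore-forming perforin, at -1.74 (SE 0.73, adjusted p = 0.244, or 0.00226 with the block) with KU-0063794 and -1.49 (SE 0.73, adjusted p = 0.334, or 0.00393 with the block) with rapamycin. The genes that rose with the block were Cd2 with both inhibitors and Cd8b1 with rapamycin. In limma Cd2 had 0.42 (SE 0.11, adjusted p = 0.0733, or 0.0190 with the block) with KU-0063794 and 0.34 (SE 0.11, adjusted p = 0.137, or 0.0424 with the block) with rapamycin. Cd8b1 had 0.39 (SE 0.19, adjusted p = 0.343, or 0.0215 with the block) with rapamycin. Gzmb, Lat, Prf1, Cd2 and Cd8b1 are named after their values were seen. Of 7 B cell, 4 CD4 T cell and 10 myeloid genes 1 each was above background in each group, and of 2 NK cell genes none was. Those above it were Cd79b, Zbtb7b and Csf1r, with DMSO means of 1.80, 1.88 and 1.87 log2, while Ms4a1, Cd4, Foxp3, Itgam and S100a9 were below it. Of the 4 myeloid genes tested, 1 passed as lower with rapamycin (adjusted p = 0.0208 in limma), where 1.79% of all genes did. None passed with KU-0063794. Summed B cell signals were 10.5 to 11.9 with KU-0063794 and 9.37 to 13.4 with rapamycin, against 10.7 to 13.5 with DMSO, and myeloid ones 14.1 to 15.7 and 13.5 to 14.7, against 14.5 to 15.6. The actin control's 3′ minus 5′ signal, a measure of RNA integrity, was higher than with DMSO in 3 of 3 spleens with each inhibitor. By spleen it was 0.67, 0.70 and 0.65 with KU-0063794 and 0.62, 0.72 and 0.62 with rapamycin, against 0.54, 0.65 and 0.49 with DMSO. The same measure of the Gapdh control was lower than with DMSO in every spleen with each inhibitor. It was -0.122, -0.026 and -0.224 with KU-0063794 and -0.155, -0.027 and -0.245 with rapamycin, against -0.067, 0.036 and -0.210 with DMSO. What part these measures have in the differences was not tested.

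The choice or averaging of probe sets decided several calls. The 46 genes had 97 probe sets, 78 of them above background, and 11 genes had 1 only. Of the 24 genes with another probe set above background, Orc2 and Rfc1 had one that pointed the opposite way with each inhibitor. With the mean of all probe sets in place of the brightest, Pola2 and Pole2 did not pass with either inhibitor, Pola1 did not with KU-0063794 and Cdc7 did not with rapamycin. The probe sets that this mean adds for Pola1, Pola2 and Pole2 all lay below the background level of 1.31 log2. Their means were 0.06 for Pola1, 0.38 and 0.21 for Pola2 and 0.21 for Pole2. That added for Cdc7 lay just above background, at 1.37. Pola2 then had 0.13 with KU-0063794 (adjusted p = 0.417 in limma) and 0.16 with rapamycin (adjusted p = 0.311). Pole2 had 0.15 (adjusted p = 0.211) and 0.12 (adjusted p = 0.306). Gins2 and Rfc4 passed with both inhibitors and Dnmt1 with rapamycin. With the probe set of highest median, Uhrf1 passed with KU-0063794.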

How the data were processed

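Total RNA of 9 cultures, 3 with KU-0063794, 3 with rapamycin and 3 with DMSO, was measured on 1 Affymetrix array each, and the number of arrays limits the precision. The deposited file holds log2 signals, 1 value per probe set and array. The authors made them with Affymetrix Expression Console 1.3.1, per the submitters' processing notes, with summarisation and normalization not given in the sources used here. They were used as deposited, since array medians already lay within 0.47 to 0.53 log2. Of 45101 probe sets 64 were controls, 34945 carried 1 gene symbol, 932 several and 9160 none that the annotation lists, and those with 1 symbol were used.

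Each of 18193 genes was read from its probe set with the highest mean, and 13278 genes with a mean above the 40th percentile of non-control probe sets (0.31 log2) were tested. The 95th percentile of 30 tissue-restricted genes, 1.31 log2, served as the background level. Contrasts were fitted with limma 3.58.1 in R 4.3.3 (lmFit and eBayes, 3 groups over 9 arrays, no term for the spleen, two-sided). Benjamini-Hochberg adjustment covered all genes tested, at a threshold of 0.05. The steps were tested on simulated data with planted changes of at least 2-fold and no spleen effect. No member changed by 2-fold, so that test does not cover changes of the size reported here.

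Per the labels each replicate number is 1 spleen, so numbers pair the arrays. Deviations from group means correlated across genes with r of 0.345 to 0.533 for the 9 pairs of arrays with the same number and -0.414 to -0.0791 for the 18 others. Such deviations cancel out within each group, so negative values among the other pairs follow from the positive ones and are no separate support. A second fit carried the spleen as a block. Members and gene lists were chosen with earlier results of these data known. Values on all arrays are given for members past the threshold in any contrast and, in role groups with fewer than 2 of these, for those with the largest mean change, up to 2 per group. Members that pass only with the block are named with both p-values, and of the other lists up to 6 genes past the threshold by adjusted p. Pcna, Pold4, the Mcm6 promoter and the panels of Orc1, Rfc3 and Rpa1 were added after their values were seen. Alternatives covered normalization, filter, probe set choice, spleen block, variance model, arrays in the fit and every array or spleen left out.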

Additional observations from a re-analysis of the deposited data

How the results depend on the processing

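The direction of every call was the same under every alternative, while the number of members called depended on the processing, as did the median of KU-0063794 against rapamycin. The count was 16 with KU-0063794 and 14 with rapamycin (4.07% and 4.44% of all genes). It came to 30 and 21 with the spleen as a fixed block (1644 and 1561 of all genes) and to 27 and 22 with the spleen as a random block (9.72% and 9.38% of all genes, as for the other shares given here). Fitting only the 2 groups compared left 1 and 1 (0.836% and 0.738%), with fewer arrays behind the error. Quantile normalization gave 19 and 14 (4.39% and 4.6%), median centring 17 and 12 (4.24% and 4.49%), no filter 15 and 14 (2.79% and 2.97%), a stricter filter 18 and 15 (6.19% and 6.68%) and the mean of all probe sets 15 and 14 (3.55% and 4.1%). The highest median gave 17 and 14 (4.14% and 4.48%), trend 19 and 16 (4.84% and 5.02%), trend with robust 22 and 17 (5.0% and 5.23%), and array weights 16 and 13 (4.69% and 4.18%). Over the left-out arrays the count ran from 3 to 16 with KU-0063794 (0.904% to 4.06%) and from 2 to 12 with rapamycin (1.26% to 3.85%), and it was 0 with any 1 spleen left out. The block with a spleen left out was added after seeing the data and gave 0, 7 and 2 with KU-0063794 (0.662%, 3.64% and 0.903%) and 0, 5 and 0 with rapamycin (0.0451%, 3.19% and 0.135%), for spleens 1, 2 and 3. The median log2 fold change stayed between 0.33 and 0.48 with KU-0063794 and between 0.25 and 0.40 with rapamycin. For KU-0063794 against rapamycin no member passed under any setting. Its median of 0.057 moved to 0.015 with the mean of all probe sets, to 0.020 with the block and without replicate 2, and lay between 0.016 and 0.066 over the left-out arrays and spleens. No called member changed sign, and none kept its call under every alternative. Of the 46 differences between the inhibitors 25 changed sign somewhere. Of members not called, Orc1, Orc2, Prim2 and Chaf1b changed sign somewhere with KU-0063794, and Mcm8, Orc1, Orc2, Dbf4, Rfc3 and Chaf1b with rapamycin. The cause of these changes was not tested.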
